A study of Mus musculus with 16 samples.

Results

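Small proline-rich protein genes were followed in GFP+ intestinal stem cells (ISCs) of mice after vertical sleeve gastrectomy (VSG) or sham surgery. The genes were Sprr2a1, Sprr2a2, Sprr2a3, Sprr2b and Sprr1a, 5 of the 17 Sprr genes and 5 of the 48440 genes listed. They were chosen by name with earlier VSG and sham values of these data known, and the near-identical Sprr2a1, Sprr2a2 and Sprr2a3 (the Sprr2a copies) were also summed within each library. Their values by surgery are therefore a description, no p-value is given for them, and where a member was among the genes called in a fit over all genes, nothing is read from the call. The other 12 Sprr genes, among them Sprr1b, Sprr3, Sprr4, 7 others of the Sprr2 group and the pseudogenes Sprr2c-ps and Sprr2j-ps, were listed at 0 in all 16 libraries.

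All mice were female Lgr5eGFP mice, which carry EGFP in the Lgr5 gene, so that the sort depends on that promoter. All were kept on a 60% high-fat diet for 16 weeks, operated, and killed 4 weeks after surgery, 15 minutes after a liquid meal that followed an overnight fast. In VSG the larger, lateral part of the stomach was removed, whereas in sham surgery the stomach was only pressed with forceps. The stated age of 8 to 16 weeks is for animals of all experiments together, and no separate age was found for these mice. Immune cells (CD45), endothelial cells (CD31), apoptotic cells (annexin V) and dead cells (Sytox) had been removed before the GFP sort. The 16 libraries came from 7 mice. Of the proximal segments, duodenum and jejunum, 4 VSG and 2 sham libraries were used for each, and of the ileum 2 VSG and 2 sham, every library being 1 segment (6 cm) of 1 mouse. Libraries of 1 surgery with the same replicate number came from 1 mouse, and VSG replicate 5 gave an ileal library only.

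Small proline-rich proteins are short proteins that transglutaminases cross-link into the cornified envelope, the tough protein shell beneath the membrane of cells in skin and other stratified squamous epithelia. In the intestine, which forms no such envelope, Sprr2a is known as a gene that bacteria and type 2 cytokines induce in the epithelium, and its product is known to act against Gram-positive bacteria. Sprr1a is also known as a gene induced in injured neurons, and AP-1 is a known regulator of several family members.

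The 17 Sprr genes lie in 1 run of 284.7 kb on chromosome 3 (GRCm38, GENCODE M21, chr3:92215799-92500493), and the Sprr2a copies occupy 75.6 kb at one end of it. Sprr2a1 (ENSMUSG00000078664, chr3:92215799-92221911), Sprr2a2 (ENSMUSG00000068893, chr3:92215920-92256724), Sprr2a3 (ENSMUSG00000074445, chr3:92285417-92291405) and Sprr2b (ENSMUSG00000050092, chr3:92316620-92318085) are on the plus strand. Sprr1a (ENSMUSG00000050359, chr3:92483952-92485895) is on the minus strand. The shorter Sprr2a2 transcript (722 nt) starts within the first exon of Sprr2a1 and skips to the last exon of Sprr2a2, so the annotated genes overlap. The coding sequence of each Sprr2a copy is 249 bases, stop codon not included, and lies within 1 exon. It was the same in Sprr2a1 and Sprr2a2 at every base, and Sprr2a3 differed from them at 3 bases. Counted from 1 at the A of the start codon, with the Sprr2a1 base first, the differences were G63A, G159T and A192T. The coding sequences of Sprr2a1 (chr3:92219092-92219340) and Sprr2a3 (chr3:92288588-92288836) are shown to show how close the copies are, and capitals mark the differing bases.
Sprr2a1: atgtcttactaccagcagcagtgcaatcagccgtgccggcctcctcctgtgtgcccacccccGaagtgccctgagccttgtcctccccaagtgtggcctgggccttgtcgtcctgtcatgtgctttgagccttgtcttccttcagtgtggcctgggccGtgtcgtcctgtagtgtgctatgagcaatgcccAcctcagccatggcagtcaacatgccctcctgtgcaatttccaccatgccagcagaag
Sprr2a3: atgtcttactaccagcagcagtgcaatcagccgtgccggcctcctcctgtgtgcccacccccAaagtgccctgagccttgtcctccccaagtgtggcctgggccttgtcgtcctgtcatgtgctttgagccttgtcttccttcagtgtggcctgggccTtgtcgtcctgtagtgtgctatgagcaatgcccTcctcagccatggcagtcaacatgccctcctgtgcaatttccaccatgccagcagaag
The others were less alike. Over aligned bases, the Sprr2a1 coding sequence shared 87.95% with that of Sprr2b (294 bases) and 74.39% with that of Sprr1a (432 bases).

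Reads were single-end and 85 nt long, so every 85-base window of each annotated transcript was looked up in the other members' transcripts. Of the 2919 windows of Sprr2a1, 188 (6.44%) occurred in no other gene and 90.0% occurred in Sprr2a2. Of the 2783 windows of the longer Sprr2a2 transcript (2867 nt), 170 (6.11%) were its own, and all 638 windows of the shorter one occurred in Sprr2a1 too. Sprr2a3 was better separated, with 57.1% of windows of its own in its longer transcript (2880.0 nt) and 76.9% in the shorter one (682 nt). For Sprr2b 97.4% of windows were specific, the other 18 being shared with Sprr2a1, and for Sprr1a all were. None of the windows occurred in a gene outside these 5. How the authors' counting divided reads of shared windows between Sprr2a1 and Sprr2a2 could not be checked from the tables, so levels of these 2 genes are uncertain singly. A read moved between them stays in their sum, but its worth in normalized counts may differ between genes. Sprr2a3 also shares windows with both. The effect of this on the sums was not tested.

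**Figure D1:**
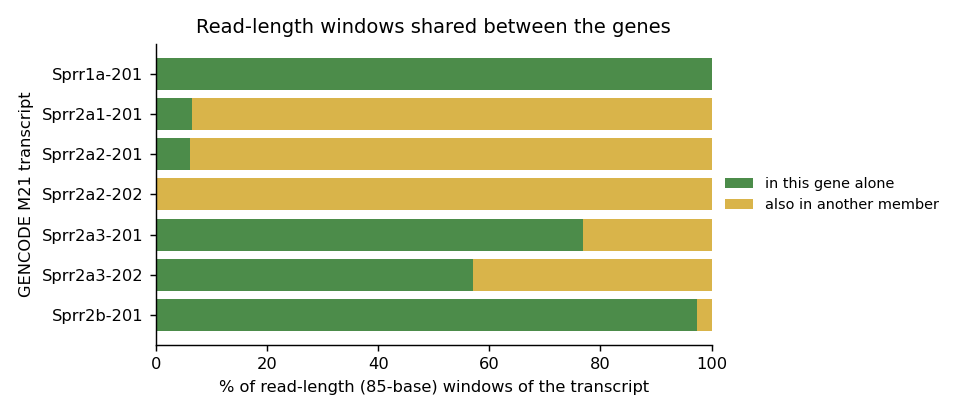
Percent of the 85-base windows of each transcript (x axis) that occur in that gene alone (green) or also in another of the 5 genes (yellow), for each GENCODE M21 transcript (y axis). The transcripts of Sprr2a1 and Sprr2a2 have at most 6.44% of windows of their own, whereas those of Sprr2b and Sprr1a have at least 97.4%.

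The promoters were read from the RefSeq table (GRCm38), in which all 5 genes had an entry of 250 bases before and 50 bases after the RefSeq start. Those of Sprr2a1 and Sprr2a2 were the same over all 300 bases, and that of Sprr2a3 matched them over 272 bases with a shift of 28. The stretches before the first annotated exon are shown for Sprr2a1 (chr3:92215585-92215798, plus strand), Sprr2b (chr3:92316455-92316619, plus strand) and Sprr1a (chr3:92485896-92486131, minus strand), because their motif letters differ between the copies and the other members. Capitals mark motif matches.
Sprr2a1: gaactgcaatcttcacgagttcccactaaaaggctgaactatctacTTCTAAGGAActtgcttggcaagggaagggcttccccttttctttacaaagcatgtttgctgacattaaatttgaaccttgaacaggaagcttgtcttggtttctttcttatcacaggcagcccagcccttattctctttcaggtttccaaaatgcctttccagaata
Sprr2b: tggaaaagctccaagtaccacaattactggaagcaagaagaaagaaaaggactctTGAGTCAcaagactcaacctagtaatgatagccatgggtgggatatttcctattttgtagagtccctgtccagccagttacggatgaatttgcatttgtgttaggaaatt
Sprr1a: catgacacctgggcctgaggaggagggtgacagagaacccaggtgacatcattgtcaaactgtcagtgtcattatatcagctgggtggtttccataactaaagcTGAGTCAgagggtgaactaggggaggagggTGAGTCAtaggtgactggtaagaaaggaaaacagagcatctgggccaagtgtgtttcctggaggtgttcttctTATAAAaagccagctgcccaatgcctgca
Motifs were searched on both strands. The STAT6 form, TTC and GAA with 4 bases between, was found in each Sprr2a copy, 204 bases before the start in Sprr2a1 and Sprr2a2 and 176 in Sprr2a3, and in 5.85% of 32851 promoters of the same length. The AP-1 motif TGANTCA, held by 6.75% of promoters, was found in Sprr2b (195 bases before the start) and at 2 places in Sprr1a (146 and 116), and in none of the Sprr2a copies. The TATA box letters TATAAA, held by 12.4%, were found in Sprr1a (43 before the start) and Sprr2b (29 before the start, outside the stretch shown). The shorter-spaced STAT motif TTCNNNGAA, held by 7.02%, was found in Sprr2a3 only (249 before the start), and the interferon response motif, GAAA and GAAA with 2 bases between and held by 2.98%, in none of the 5. With the shift of 28, the place of that STAT match falls outside the 250 bases searched in Sprr2a1 and Sprr2a2. Its absence there is therefore not a difference between the copies. No 2 of these matches overlapped. The letters are a description of these windows and not a measure of binding.

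Values are normalized counts, which the authors scaled within each segment, so levels are compared within a segment. The libraries held an estimated 33.7 to 63.6 M reads (duodenum), 22.2 to 57.8 M reads (jejunum) and 10.9 to 36.4 M reads (ileum) counted in genes. For this the commonest positive value of each library was taken as 1 read, which was worth 0.586 to 2.07 normalized counts. The ileal sham replicate 2 was the shallowest. Lgr5 itself was listed at 0 in sham replicate 1 of the jejunum and of the ileum. The ileal bile acid-binding gene Fabp6 had 196952 normalized counts in jejunal VSG replicate 1 against 15.8 to 313 in the other jejunal libraries. The jejunal difference of the Sprr2a sum, the call of Sprr2a1 and the jejunal maximum of the Sprr2a share are therefore given with and without that library. Other jejunal marker values and the correlations include it. Throughout, fewer cells making an RNA and less of it per cell cannot be told apart in such bulk samples. Each library of a group came from a different mouse, so the spread within a group is between mice.

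Sprr2a2 carried nearly all counts of the family in every library. It held 88.0% to 99.1% of the summed Sprr2a counts, with a median of 95.6% over the 16 libraries. Sprr2a3 held 0.859% to 3.27%, and Sprr2a1 held 0% to 9.42% with a median of 2.54%. These are shares of counts and not of molecules, since the transcripts differ in length. The shares of Sprr2a1 and Sprr2a2 also rest on how reads of their shared windows were divided, which could not be checked. The sum of the copies made up 0.0158% to 1.02% of all normalized counts of a library.

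In the jejunum, Sprr2a1 was the member with the widest gap between the groups, and the sum of the copies overlapped between them. Sprr2a1 had 4679, 1443, 1030 and 1501 normalized counts in VSG replicates 1 to 4 and was listed at 0 in both sham libraries. All VSG libraries were thus above the sham libraries, as for 6.59% of all genes tested (6.21% lay wholly below), and no fold is given against values listed at 0. In reads, these VSG values came to 3104, 1775, 714 and 2562. Sprr2a1 was 1 of the 2 genes of 15857 tested (0.0126%) that were called in the jejunum, both as higher after VSG, where called means p under 0.05, adjusted p under 0.2, a log2 difference beyond 0.5 and a mean above 50 in limma. The other was AY036118. Without any 1 of the 4 jejunal VSG libraries Sprr2a1 was not among the genes called, although the remaining VSG libraries were still all above sham. It was among them with the other pseudocounts, filters and scalings tried and in limma without trend, but not with a block for replicate number. Both sham libraries were listed at 0, so leaving 1 of them out does not change the difference. Nothing is read from these calls.

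Sprr2a2 had 66320 normalized counts in VSG replicate 1, 36369 in replicate 2, 11139 in replicate 3 and 15315 in replicate 4 of the jejunum, against 21596 and 6001 in sham replicates 1 and 2. The 2 highest libraries were VSG and the lowest was sham, with sham replicate 1 above 2 of the VSG libraries. Sprr2a3 had 1949, 1155, 181 and 338 normalized counts after VSG and 730 and 193 after sham, again with overlap, and its lowest library was VSG replicate 3. Summed, the copies came to 72948, 38967, 12350 and 17154 normalized counts after VSG and to 22327 and 6194 after sham. The means were 35355 ± 27609 (SD, n = 4) and 14260.5 ± 11407 (SD, n = 2). Sham replicate 1 lay within the range of the VSG libraries, and the difference of mean log2 sums, VSG minus sham, was 1.24 with a standard error of 1.04. It was 0.78 without VSG replicate 1, the library high in Fabp6, 2.17 without sham replicate 1 and 0.32 without sham replicate 2. The jejunal difference of the sum was thus of about the size of its standard error.

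**Figure D2:**
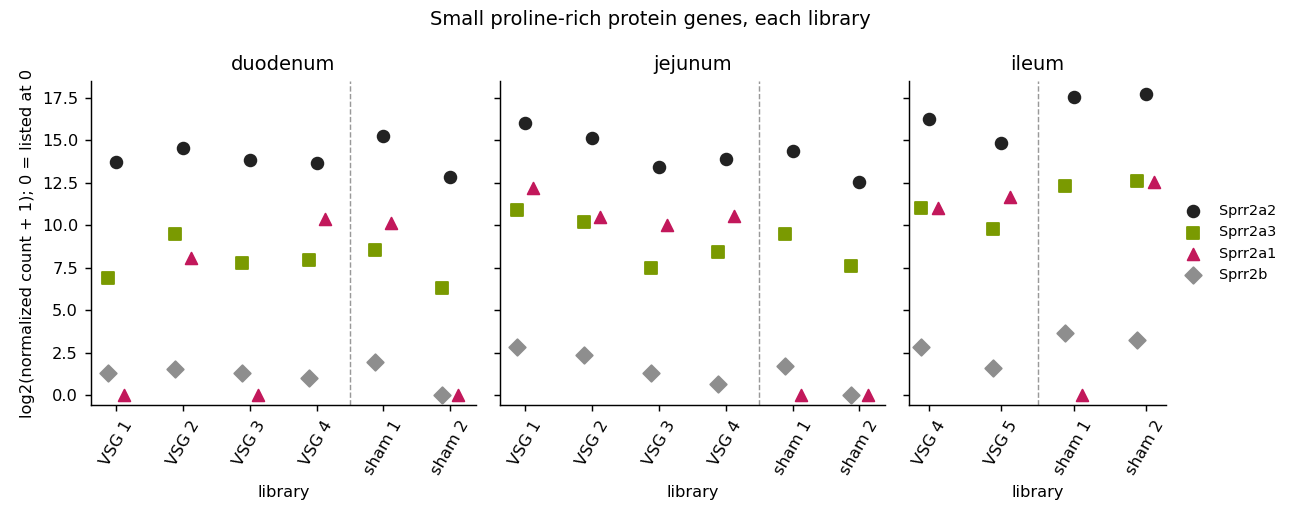
Normalized counts of Sprr2a2, Sprr2a3, Sprr2a1 and Sprr2b on the scale log2(value + 1) (y axis) in each of the 16 libraries (x axis), VSG to the left and sham to the right of each dashed line, with symbols shifted sideways so as not to cover each other. Sprr2a1 sits at 0 in 6 libraries in which Sprr2a2 ranges from 6001 to 191795 normalized counts.

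The 0 of Sprr2a1 was not particular to the jejunal sham libraries. Sprr2a1 was listed at 0 in 6 of the 16 libraries, 2 VSG and 4 sham. Sprr2a2, with which it shares most windows, had 6001 to 191795 normalized counts in those 6 libraries and 11139 to 217867 in the other 10. A count of 0 allows up to 3 reads of counting error, or 3.35 and 2.60 normalized counts in jejunal sham replicates 1 and 2. Where Sprr2a1 was above 0 it took 275 to 4655 reads, with nothing between 0 and 275. Divided by the worth of 1 read, all 10 of these values came out whole within 0.01, whereas 1 of 16 Sprr2a2 values and 0 of 16 Sprr2a3 values did. Sprr2a2 and Sprr2a3 each have 2 annotated transcripts and Sprr2a1 has 1. The part of read division between the copies in these 0 values was not tested.

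As a share of the summed copies, Sprr2a1 took 1.07% to 9.42% in the 10 libraries above 0. In the jejunum its share was 6.41%, 3.70%, 8.34% and 8.75% after VSG. Over the 16 libraries, each set relative to its segment's mean on the log2 scale, Sprr2a2 had a Pearson correlation of 0.92 with Sprr2a3, 0.94 with Sprr2b and 0.29 with Sprr2a1. The points share libraries and 7 mice, so these are descriptions. Sprr2a2 also shares sequence with Sprr2a3 and most with Sprr2a1, 90.0% of whose windows occur in it. Sprr2a3 stood at 0.867 to 3.38 for each 100 normalized counts of Sprr2a2. Of the Sprr2a copies, Sprr2a1 was thus the one whose listed level went least with that of Sprr2a2. Its values of 0 enter this correlation, and the part of read division in it was not tested.

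**Figure D3:**
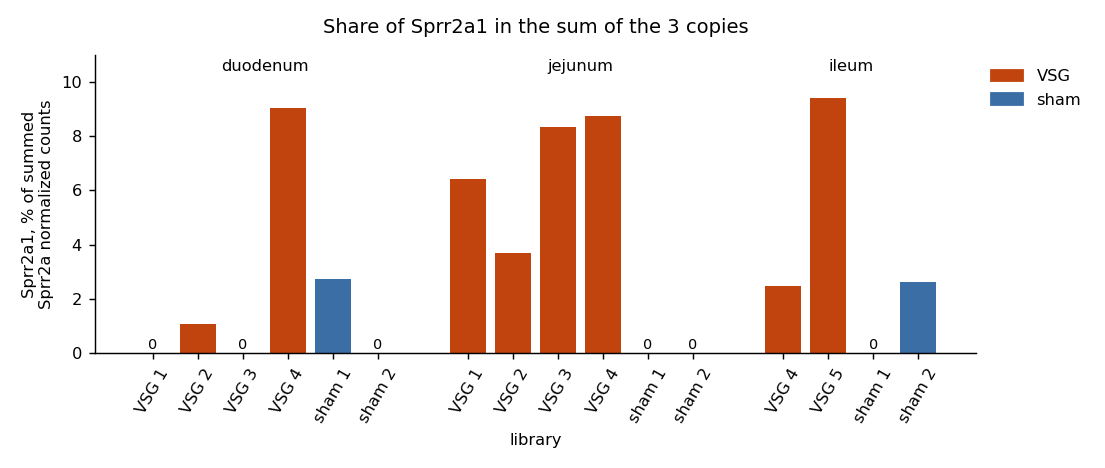
Sprr2a1 as a percent of the summed normalized counts of Sprr2a1, Sprr2a2 and Sprr2a3 (y axis, linear from 0) in each library (x axis), VSG in red and sham in blue, with 0 printed where it was listed at 0. The 4 jejunal VSG libraries lie between 3.70% and 8.75%, and 2 duodenal VSG libraries are at 0 beside the jejunal sham libraries.

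In the ileum, Sprr2a2 and Sprr2a3 were lower in both VSG libraries than in both sham libraries. Sprr2a2 had 79510 and 29802 normalized counts in VSG replicates 4 and 5 and 191795 and 217867 in sham replicates 1 and 2. Sprr2a3 had 2087 and 885 after VSG and 5026 and 6192 after sham. Sprr2a1 had 2061 and 3193 after VSG but 0 and 6012 after sham, so that its groups overlapped and its lowest and highest libraries were both sham. Summed, the copies came to 83658 and 33880.0 normalized counts after VSG and to 196821 and 230070.2 after sham. The means were 58769 ± 35198 (SD, n = 2) and 213446 ± 23511 (SD, n = 2), the sham mean being 3.63 times the VSG mean. On the log2 scale the difference, VSG minus sham, was -2.0 with a standard error of 0.66. It lay between -2.65 and -1.35 when each of the 4 libraries was left out in turn. Of all 13853 ileal genes tested, 11.6% had both VSG libraries below both sham libraries, and no gene was called in the ileum by limma (455 genes, 3.28%, at an unadjusted p under 0.05).

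Sprr2b, of which 97.4% of windows are its own, was counted at 1 to 10 reads in 14 libraries and 0 in the other 2. In the ileum it had 6.05 and 2.06 normalized counts after VSG and 11.6 and 8.28 after sham, in the same order of groups as Sprr2a2 and Sprr2a3. In reads, the ileal values were 10 and 3 after VSG and 10 and 4 after sham, so the counts themselves were equal in VSG replicate 4 and sham replicate 1. Across libraries Sprr2b reached at most 11.7 normalized counts for each 100000 of summed Sprr2a, with a median of 7.08.

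Cell type markers also differed between the ileal groups, beside the Sprr2a copies. The summed stem cell markers were at 13390 to 22332 normalized counts after VSG and 6444 to 10818 after sham, and 5 of the 8 had both VSG libraries above both sham libraries, as had 17.0% of all genes tested. Axin2, a Wnt target, was the 1 of the 8 wholly below (11.6% of all genes), at 1377 to 1409 normalized counts after VSG and 2816 to 3477 after sham. Olfm4, a marker of crypt base stem cells, had 7641 and 5352 normalized counts after VSG against 795 and 2646 after sham. Summed immune markers were at 181 to 482 after VSG and 0 to 3.49 after sham, with Cd3e, Cd3g, Cd79a and Jchain among those at 0. The summed enterocyte markers, at 164021 to 357969 after VSG and 295285 to 303374 after sham, overlapped. Fabp6, an ileal enterocyte gene outside that list, had 72740.3 and 29162 normalized counts in VSG replicates 4 and 5 and 208801 and 135504 in sham replicates 1 and 2, so that it was lower in both VSG libraries, as the Sprr2a sum was. Paneth markers overlapped as well, at 23008 to 107998 after VSG and 3464 to 34564 after sham. Summed goblet markers, at 146530.2 to 198127 after VSG and 82724 to 138787 after sham, did not overlap. Singly, 1 of the 9 goblet markers had both VSG libraries above both sham libraries, beside 17.0% of all genes. Of the 9, 0 were at an unadjusted p under 0.05. The part of these cell types in the ileal Sprr2a values was not tested.

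In the duodenum, the sum of the copies was highest and lowest in the sham libraries. Sprr2a2 had 13832, 23864, 14807 and 13217 normalized counts in VSG replicates 1 to 4, and 39161 and 7504 after sham. Sprr2a3 had 120, 703, 222 and 245 after VSG and 372 and 77.8 after sham. Sprr2a1 was listed at 0 in VSG replicates 1 and 3 and in sham replicate 2, and had 267 in VSG replicate 2, 1337 in VSG replicate 4 and 1110 in sham replicate 1. No duodenal member separated the groups or was called, while 6.44% of all 16867 duodenal genes tested lay wholly above and 8.01% wholly below sham after VSG, and 0.0237% were called, all as lower. The summed values were 13952, 24835, 15029 and 14799 after VSG and 40643 and 7582 after sham, with means of 17154 ± 5142 (SD, n = 4) and 24113 ± 23378 (SD, n = 2). Their log2 difference, VSG minus sham, was -0.075 with a standard error of 0.80. It was 1.14 without sham replicate 1 and -1.29 without sham replicate 2, so the direction turned on which sham library was kept.

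**Figure D4:**
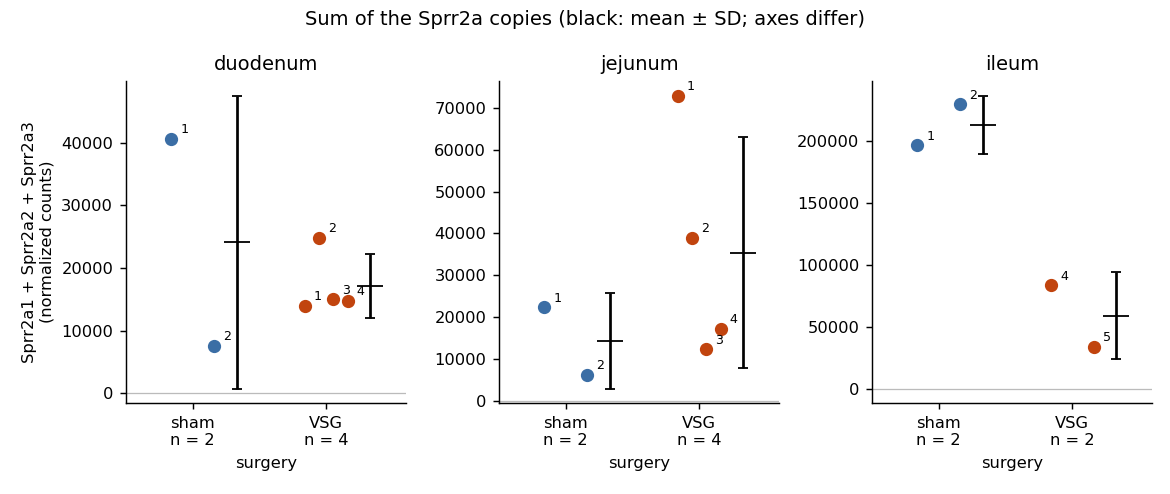
Summed normalized counts of the Sprr2a copies (y axis, a separate scale for each segment) by surgery (x axis), each point a library with its replicate number and the black marks the mean ± SD of the group. The groups overlap in the duodenum and the jejunum, and in the ileum the VSG libraries at 83658 and 33880.0 lie below the sham libraries at 196821 and 230070.2.

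Sprr1a, whose windows are all its own, was listed at 0 in 15 of the 16 libraries. The exception was VSG replicate 4 of the duodenum, with 39.0 normalized counts or 38 reads. The squamous epithelium, where Sprr1a is best known, was looked for by 14 markers, of which 9 were at 0 in all duodenal libraries, among them Krt5, Krt14, Krt4, Dsg3 and Dsc3. Pkp1, a desmosome protein, carried most of the rest, at 2660 to 4050 normalized counts, followed by Krt15 at 44.4 to 460. In the jejunum Krt4, Krt13, Trp63 and 6 others of the 14 were at 0, and in the ileum 10 were. The summed squamous markers were 3037 to 4351 after VSG and 3186 to 3299 after sham in the duodenum, 1315 to 3687 and 452 to 1964 in the jejunum, and 561 to 789 and 3.49 to 459 in the ileum.

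Followed within a mouse, the sum of the Sprr2a copies was set as a percent of all normalized counts of its library, because the segments were normalized separately. No test is made across segments. In the ileum it was 0.380% in VSG replicate 4 and 0.154% in VSG replicate 5, and 0.787% and 1.02% in sham replicates 1 and 2. Jejunal libraries ran from 0.0184% to 0.218% and duodenal libraries from 0.0158% to 0.0785%. The highest jejunal library, VSG replicate 1 with its high Fabp6 level, was above the lowest ileal library, and without it the jejunal maximum was 0.113% and the ileal range lay higher. Each of the 3 mice with all segments had its highest share in the ileum, at 7.5 times the jejunal share in VSG replicate 4, 16.6 times in sham replicate 1 and 55.7 times in sham replicate 2. The jejunal share was above the duodenal share in 5 of 6 mice, the exception being sham replicate 1 at 0.604 times. The order of the 6 mice was hardly shared between duodenum and jejunum, with a Spearman correlation of 0.14.

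**Figure D5:**
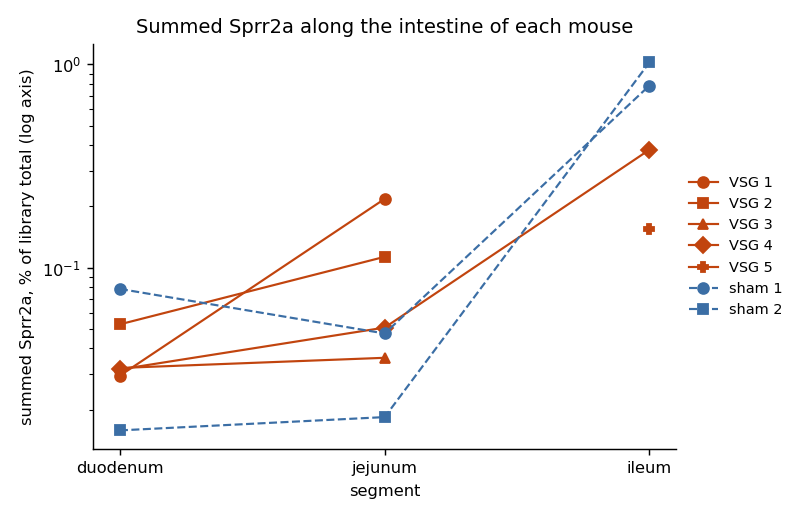
Summed Sprr2a as a percent of all normalized counts of the library (y axis, log scale) in the duodenum, jejunum and ileum (x axis), each line a mouse, VSG solid and red, sham dashed and blue. The ileal values, 0.154% to 1.02%, are above the same mouse's values in the other segments for all 3 mice with 3 segments.

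Genes related to the Sprr genes, possible regulators and markers of cell types were counted in lists, which were written with earlier results known. The counts of this paragraph are over all lists together, cell type markers included. In the duodenum 17 of 109 listed genes tested had an unadjusted p under 0.05 (9 higher and 8 lower after VSG), beside 6.27% of all genes (2.79% higher and 3.48% lower), and none was called. In the jejunum 18 of 105 did (13 higher and 5 lower), beside 6.04% (3.63% higher and 2.40% lower). Of 95 ileal genes 2 did, both higher, beside 3.28% (2.09% higher and 1.19% lower), and no listed gene was called in these segments either. Enterocyte markers gave 4 of the 17 duodenal and 4 of the 18 jejunal genes, and goblet markers gave 1 and 6. Where a median log2 difference is given for a list, that of all genes tested was 0.01 for duodenum, 0.11 for jejunum and 0.24 for ileum.

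Partner proteins of the cornified envelope were mostly absent. Of 14 genes, 10 were at 0 in all duodenal libraries, among them involucrin (Ivl), loricrin (Lor), Flg2, Rptn and the transglutaminases Tgm1, Tgm3 and Tgm5, and 9 were in the jejunum and in the ileum. Desmoplakin (Dsp), which also serves ordinary desmosomes, was the most counted at 14888 to 27393 normalized counts in the duodenum. Tgm2, a transglutaminase found in many tissues, was the one envelope-list gene at an unadjusted p under 0.05. In the jejunum it had 6863, 6293, 5664 and 7645 normalized counts after VSG and 3095 and 4205 after sham, a log2 difference of 0.87 with a standard error of 0.31 (limma, adjusted p = 0.7603). From duodenum to ileum, the median of the list was -0.33, 0.18 and 0.80. The 13 S100 genes of the same chromosomal cluster, calcium-binding proteins of the epidermal differentiation region, gave 7 tested genes in each segment and none at an unadjusted p under 0.05, with medians of -0.30, 0.18 and -0.05.

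Among transcription factors, all 13 listed members of AP-1, ETS and KLF were tested in each segment. None was at an unadjusted p under 0.05 in the duodenum or the jejunum, and the medians were 0.09, -0.15 and -0.01 from duodenum to ileum. In the ileum Atf3, a stress-induced AP-1 partner, had 8274 and 5841 normalized counts after VSG and 2536 and 2017 after sham. Its log2 difference was 1.62 with a standard error of 0.44 (limma, adjusted p = 0.7356). Of the 13 factors in the ileum, 5 (Fos, Jun, Junb, Atf3 and Elf3) had both VSG libraries above both sham libraries, as had 17.0% of all genes tested. Another 4 (Ehf, Klf4, Klf5 and Klf6) had both below, as had 11.6% of all genes, Sprr2a2 among them. Of the 13, Atf3 alone was at an unadjusted p under 0.05. Klf4, for example, had 4499 to 5158 normalized counts after VSG and 7488 to 10592 after sham.

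Receptors and targets of IL-6, IL-22 and STAT3 gave 5 of 14 genes at an unadjusted p under 0.05 in the duodenum, 3 higher and 2 lower, with a median of 1.16. Reg3g, a lectin that kills Gram-positive bacteria, was higher in every VSG library than in either sham library of both proximal segments. In the duodenum it had 20502 to 108677 normalized counts after VSG and 2500 and 11767 after sham, a log2 difference of 3.12 with a standard error of 0.69 (limma, adjusted p = 0.3904). Its jejunal values were 21667 to 69906 after VSG and 4170 and 20746 after sham, with a log2 difference of 2.25 and a standard error of 0.64 (limma, adjusted p = 0.7603). Reg3a, a related lectin, was lower in every VSG library of the same segments, at 1056 to 3014 after VSG and 4190 and 6124 after sham in the duodenum, and at 1933 to 4617 and 7739 and 18359 in the jejunum. Fut2, a fucosyltransferase of the epithelium, had 467 to 980 after VSG and 116 and 183 after sham in the duodenum. In the jejunum 2 of 14 were at an unadjusted p under 0.05, 1 in each direction, with a median of 0.60, and in the ileum 0 of 12, with a median of 0.12.

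Receptors and targets of IL-4 and IL-13, the type 2 cytokines, gave 1 of 7 duodenal, 2 of 7 jejunal and 0 of 4 ileal genes at an unadjusted p under 0.05, with medians of 0.39, 1.79 and -0.01. The jejunal median was the value of Chil3, counted in 1 jejunal library only (142 normalized counts, VSG). Above it were Clca1 at 1.91, and Il25 and Arg1, with means of 16.6 and 40.5 normalized counts and 0 after sham. Below it were Il13ra1, Il4ra and Stat6 at 0.42, 0.52 and 0.94. The receptor chain Il4ra had 2198 to 3924 normalized counts after VSG and 956 and 1622 after sham in the duodenum. Stat6, which carries the IL-4 signal to the nucleus, had 3703 to 7966 after VSG and 2353 and 3494 after sham in the jejunum. Clca1, a goblet cell product that these cytokines induce and that is also on the goblet list, had 11134 to 71526 after VSG and 5628 and 15913 after sham there, so that the groups overlapped. Il4ra (adjusted p = 0.4853), Stat6 and Clca1 (both adjusted p = 0.7603) did not pass the limma threshold. The mast cell proteases Mcpt1 and Mcpt2 were at 0 in every library.

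Injury-associated epithelial genes gave 2 of 13 duodenal, 1 of 11 jejunal and 0 of 12 ileal genes at an unadjusted p under 0.05, with medians of -0.98, -0.55 and -0.12. Krt7, a simple epithelial keratin, had 5356 to 8068 normalized counts after VSG and 3746 and 4278 after sham in the duodenum, with an adjusted p of 0.6445 in limma. Its jejunal values were 4366 to 10471 after VSG and 780 and 4687 after sham. The alarmin Il33 had 113 to 328 after VSG and 500 and 724 after sham in the duodenum.

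Markers of differentiated cells differed between the jejunal groups beside Sprr2a1. For some of them the 2 sham libraries lay far apart. In sham replicates 1 and 2 the goblet markers Spink4 and Agr2 had 2409 and 14198, and 2562 and 11608 normalized counts. In the jejunum, 6 of 9 goblet markers were higher after VSG at an unadjusted p under 0.05 and the median was 1.30, with Ccl9 at 2090 to 5817 normalized counts after VSG and 671 and 856 after sham. Paneth markers gave 2 of 9, both higher, among them Mmp7, the protease that matures defensins, at 5368 to 6992 after VSG and 984 and 2472 after sham. Of 11 enterocyte markers, 4 were lower at an unadjusted p under 0.05 (Alpi, Ada, Slc28a2 and Creb3l3) and the median was -1.67. In the duodenum the 4 were Alpi, Fabp1, Apoa4 and Lct, with a median of -0.84, so that Alpi alone was in both sets. Alpi, the brush border alkaline phosphatase, had 8514 to 11852 after VSG and 20838 and 47015 after sham in the jejunum. In the duodenum it had 22048 to 40213 and 68658 and 76945, while the goblet and the Paneth list each gave 1 of 9, Agr2 and Defa22. The adjusted p-values of Ccl9 (0.7328), Mmp7 (0.6678) and Alpi (0.7328 in the jejunum and 0.336 in the duodenum) missed the limma threshold.

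Summed over each list, goblet markers were at 209351 to 404744 normalized counts after VSG and 108218 to 237581 after sham in the jejunum, and enterocyte markers at 255000 to 697734 and 562674 to 1585924. Paneth markers were at 115451 to 308034 and 40822 to 271874. Stem cell markers, at 50655 to 66920 after VSG and 15337 to 61434 after sham, overlapped, with Prom1 the 1 of 8 at an unadjusted p under 0.05 (5286 to 7852 against 1069 and 3988). Of these 4 lists, the summed enterocyte markers alone separated the groups in the duodenum, at 255118 to 510083 after VSG and 566234 to 848742 after sham. Goblet markers there were at 118914 to 310204 and 100945 to 178473, Paneth markers at 180301 to 341991 and 165398 to 290911, and stem cell markers at 90803 to 176769 and 109400 to 114541. Stomach gland markers, led by Gkn3, were at 1148 to 4125 and 2254 to 7180 in the duodenum, 169 to 1054 and 233 to 1121 in the jejunum, and 0 to 55.0 and 0 to 271 in the ileum. Immune markers were at 274 to 1757 after VSG and 112 to 132 after sham in the duodenum, with Cd3e, Cd3g and Cd79a among those at 0, and at 319 to 868 and 272 to 476 in the jejunum. The part of these cell types in the Sprr2a values was not tested.

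The genes whose pattern was most like that of the Sprr2a sum were ranked by Pearson correlation over the 16 libraries, each gene on the log2 scale relative to its segment's mean, among 10709 genes with a mean above 50 in every segment. Helz2, an interferon-induced helicase, came first at 0.86, followed by the zinc finger gene Zfp827 at 0.86, AA467197 at 0.85, the semaphorin Sema4b at 0.84 and the transcriptional corepressor Tle3 at 0.81. Within segments Helz2 had 0.77 over duodenal, 0.82 over jejunal and 0.99 over ileal libraries, the last over 4 of them. Its mean was 1695 normalized counts after VSG and 3377 after sham in the ileum, 4132 and 4293 in the jejunum, and 4517 and 4629 in the duodenum. The correlations are the highest of many and are given as descriptions.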

How the data were processed

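RNA-Seq libraries of GFP+ ISCs were aligned by the authors to mm10 with STAR 2.5.3a and quantified with Salmon 0.6.0. The authors deposited signal values, counts normalized with DESeq2 within each segment, and these values were used. Their own differential tables (log2 fold changes, standard errors, p-values and adjusted p-values per segment) were not used, nor were the libraries they excluded for low mapping. Groups came from the labels, and 16 libraries were used.

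Each segment was fitted with limma 3.58.1 (R 4.3.3, variance trend) on log2(value + 1) for genes with a mean above 10, with Benjamini-Hochberg adjustment, and the fit was tested on simulated data. Of the 5 members, 3 passed that filter in every segment, the Sprr2a copies. Sums, shares and correlations were computed in Python 3.11.15 with pandas 2.3.3. Depth was inferred from the commonest positive value of each library, taken as 1 read. By that measure 74.2% to 92.8% of low values were whole, so a count test was not run. A difference of log2 values understates low genes. The sequences were read from GRCm38 with GENCODE M21 and RefSeq promoters. Flg and Itgam, whose names belong to several identifiers, were left out of the lists.

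Members, lists and motifs were chosen with earlier results of these data known. Genes were named as the members, any other Sprr gene above a mean of 10, up to 3 genes with the lowest unadjusted p under 0.05 in each list and segment, the most abundant squamous, stomach, immune and stem cell markers, and the 5 most alike. Further genes named as at 0 or as examples were picked with values in view. The alternatives were another pseudocount (0.5 or 10), filters at a mean of 0 or 50, scaling to equal totals, quantile normalization, limma without trend, a replicate block, other sums, and leaving out each library.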

Additional observations from a re-analysis of the deposited data

Results flagged for a closer look

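In 10 of 41 groups of 4 libraries tested, 1 library lay far from the other 3 by Dixon's test at the 95% level. Chance flags about 1 in 20 groups of normally distributed values, but these values were not put on a log scale, so that rate need not hold. Where 1 library alone is above 0, as for Sprr1a, it is always flagged. The named listed genes had also been picked by their p in these libraries. All 10 flagged are VSG libraries, because the sham and the ileal groups were too small to be tested, and measures of the same gene repeat. For the Sprr genes these were Sprr2a1 in jejunal replicate 1 (4679 normalized counts against 1030 to 1501), Sprr2a2 in duodenal replicate 2 (23864 against 13217 to 14807), the summed copies in the same library (24835 against 13952 to 15029), Sprr1a in duodenal replicate 4 (39.0 against 0) and the share of Sprr2a1 in the sum in duodenal replicate 4 (9.03% against 0% to 1.07%). Among the named listed genes, duodenal replicate 3 stood apart for Reg3a (3014 against 1056 to 1305), Fut2 (980 against 467 to 536) and the leukocyte marker Ptprc (1534 against 87.0 to 276). In the jejunum Ada in replicate 1 (1141 against 126 to 275) and Agr2 in replicate 4 (8815 against 22511 to 23568) did.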

How the results depend on the processing

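The ileal difference of the summed Sprr2a copies stayed negative in all 10 alternatives (-2.65 to -1.35) and the jejunal one positive in all 12 (0.32 to 2.17), whereas the duodenal one was positive in 3 of 12 (-1.29 to 1.14 with a library left out). In the ileum, leaving out a library could not change the sign, because both VSG sums lay below both sham sums. The other sums could change little in any segment, because Sprr2a2 carried most of each sum. The number of genes called depended on the setting, and the cause was not tested. In the duodenum 4 genes were called, 0 with equal totals, filters at 0 or 50, pseudocount 0.5 or the replicate block, 10 with pseudocount 10, 43 without trend, and 0 to 259 with a library left out. In the jejunum 2 were called, 61 without trend, 0 with the replicate block, and 1 to 2710.0 with a library left out. In the ileum 0 were called, 3 with pseudocount 10, 463 without trend, and 0 to 631 with a library left out. Of the listed genes at an unadjusted p under 0.05, 17 in the duodenum became 8 with the replicate block and 6 to 27 with a library left out, 18 in the jejunum became 5 with the replicate block, 7 without trend and 10 to 36, and 2 in the ileum became 5 with equal totals or pseudocount 10, 4 without trend or with quantile normalization, and 10 to 17.

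VSG and sham libraries with the same number are different mice. Their deviations correlated at -0.049 and -0.026 in the duodenum and at 0.054 and 0.0099 in the jejunum, so the number does not pair them, and under the replicate block, which called 0 jejunal genes, Sprr2a1 was not called. Every sham group and the ileal VSG group hold 2 libraries, and where 1 was left out the lone library is assumed to vary like the rest. Depth limits Sprr2b, at 10 reads or fewer. Sprr2a1 was listed at 0 in the deepest library (63.6 M reads) and had 2903 reads in the shallowest (10.9 M).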
